A study of Homo sapiens with 18 samples.

Results

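LNCaP cells, a human prostate cancer line that responds to androgen, were kept for 48 h in medium conditioned by M1-polarised THP-1 macrophages, with or without the IkB kinase inhibitor IKK16. The comparison described here sets the 3 libraries with M1 medium and 0.7 µmol/l IKK16 against the 3 libraries with M1 medium and an equal amount of DMSO, its solvent control, which together are 6 of the 18 libraries of the study. Conditioned medium was diluted 1:4 in RPMI with 10% heat-inactivated serum, and all cells are labelled wild type. Where a result needs it, values are also given for M1 medium alone and for control medium without macrophage products, neither of which held DMSO. The table holds 28087 genes, each read from its RefSeq transcript with the highest total count, and 17070 of them had enough counts to be tested. The question set by the design is which part of the response to M1 medium depends on NF-kB signalling.

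NF-kB is a family of transcription factors, built from RELA, RELB, REL and the products of NFKB1 and NFKB2, that IkB proteins hold in the cytoplasm. The IkB kinase complex, with the catalytic subunits IKBKB and CHUK and the scaffold IKBKG, marks IkB proteins for destruction when TNF, interleukin 1 or bacterial products reach the cell, and the freed dimers switch on genes of inflammation, acute-phase defence and survival. IKK16 is a small molecule that blocks the kinase activity of this complex. M1 macrophages secrete such inflammatory signals, and M1 here refers to the medium they conditioned, not to macrophages mixed with the LNCaP cells.

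IKK16 lowered 2256 genes (13.2% of those tested) and raised 2378 (13.9%) at an edgeR adjusted p below 0.05. Most of these changes were small: 74.6% of the lowered and 80.1% of the raised genes moved by less than 1.5-fold. Changes of at least 2-fold were more often falls, with 283 genes lower (1.66%) and 142 higher (0.832%), and at 4-fold or more 56 genes were lower and 19 higher. The median log2 fold change of all genes tested was 0.002. The 3 libraries with IKK16 lay wholly below the 3 with DMSO for 2212 of the lowered genes and wholly above them for 2327 of the raised genes, whereas 21.7% and 22.6% of all genes tested were separated in these directions. The labels number the replicates without saying whether they were separate cultures, so the p-values reflect only how much these libraries varied, and that variation may be technical.

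The largest fall was in SERPINA3 (chr14:94612391-94624053), an acute-phase inhibitor of serine proteases. It read 346, 345 and 386 CPM (counts scaled to library size) with DMSO and 20, 18 and 18.5 CPM with IKK16, a 19.1-fold fall (log2 fold change -4.25 ± 0.10 SE, edgeR adjusted p = 2.71e-19). The 2 groups were far apart, yet SERPINA3 stayed 15.1-fold above its control level of 1.23 CPM. ICAM1 (chr19:10271120-10286615), the adhesion molecule that binds leukocyte integrins, read 17, 16.3 and 18.6 CPM with DMSO and 1.19, 1.67 and 1.56 CPM with IKK16 (log2 -3.55 ± 0.15, edgeR adjusted p = 4.19e-14). CHI3L2 (chr1:111227659-111243440), a secreted chitinase-like protein without counts in control medium, fell 8.48-fold, from 128, 124 and 140 to 17, 14.3 and 14.9 CPM. UBD, the ubiquitin-like modifier FAT10, fell by 2.57 on the log2 scale and CFB, complement factor B, by 2.47.

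These 4 genes, ICAM1, CHI3L2, UBD and CFB, are the ones among the 20 largest falls whose 250 bases before the start matched a 10-base kB consensus, the sequence family that NF-kB dimers bind (first base G or T, both strands). RefSeq promoter sequences on GRCh38.p14 were found for 9 of the 20. The stretches around the matches are shown because these genes are among the 20 largest falls. Genes without a promoter entry, SERPINA3 with the largest fall among them, were not searched. Capitals mark the match, which in UBD spans 2 overlapping matches and in CFB is followed by another, and each stretch reads 5′ to 3′ along its gene.
ICAM1, chr19:10270888-10270987, plus strand: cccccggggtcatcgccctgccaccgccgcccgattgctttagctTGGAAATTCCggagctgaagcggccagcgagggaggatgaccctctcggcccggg
CHI3L2, chr1:111227579-111227658, plus strand: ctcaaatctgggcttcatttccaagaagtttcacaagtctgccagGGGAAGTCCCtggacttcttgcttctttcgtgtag
UBD, chr6:29559733-29559830, minus strand: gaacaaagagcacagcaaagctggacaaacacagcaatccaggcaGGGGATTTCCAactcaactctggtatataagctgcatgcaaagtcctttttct
CFB, chr6:31945938-31946051, plus strand: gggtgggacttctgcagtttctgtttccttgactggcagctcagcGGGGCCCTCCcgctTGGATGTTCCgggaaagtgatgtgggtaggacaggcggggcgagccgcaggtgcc

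The match lay 187 bases before the start of ICAM1, 35 before CHI3L2 and 53 before UBD. The consensus is loose: it occurred in 17% of the 27305 promoters in the table, in 19% of those of the genes tested, in 21.9% of the 192 genes lowered at least 2-fold that had a promoter entry and in 15.9% of the 107 raised at least 2-fold. Among genes that M1 medium had raised at least 2-fold it stood before 21.8% of 1282, before 23.2% of the 565 of these that fell with IKK16 and before 24.3% of the 74 that rose. The canonical decamer of the immunoglobulin kappa enhancer or its close variant occurred in 0.391% of the promoters of genes tested, in 3 of those 192 (1.56%), in 0 of those 107 and in 1.25% of those 1282. Such matches describe the sequence and are not binding sites shown by these data.

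Several complement, acute-phase and other genes were also among the largest falls. The complement component gene C4B went from 28.6, 28.4 and 31.2 CPM with DMSO to 1.86, 1.75 and 1.75 CPM with IKK16 (log2 -4.04 ± 0.16, edgeR adjusted p = 6.27e-15), and its near-identical neighbour C4A fell by 3.72, so counts may be shared between the copies. ITIH4, an acute-phase protein, fell by 3.84 and its antisense gene ITIH4-AS1 by 3.82. These 2 genes overlap, and no strand setting is given in the sources used here, so their reads cannot be told apart. FGL1, a liver-type secreted ligand, fell by 3.98, CPB1, a carboxypeptidase, by 3.47, S100A7, an antimicrobial S100 protein, by 3.04 and LBP, which carries lipopolysaccharide, by 2.66. C1S, a protease of the classical complement pathway, fell from 182, 175 and 186 to 34.5, 28.3 and 33.7 CPM. The serotonin receptor subunit HTR3A, TCIM and the synaptotagmin SYT17 fell by 2.57, 2.49 and 2.44. ELMO1, an adaptor for RAC activation, also met the criteria (log2 -2.42 ± 0.60) but rested on 1 library: it read 5.54, 0.69 and 1.3 CPM with DMSO, and without DMSO replicate 1 its log2 fold change was -1.11 (edgeR adjusted p = 0.105).

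**Figure D1:**
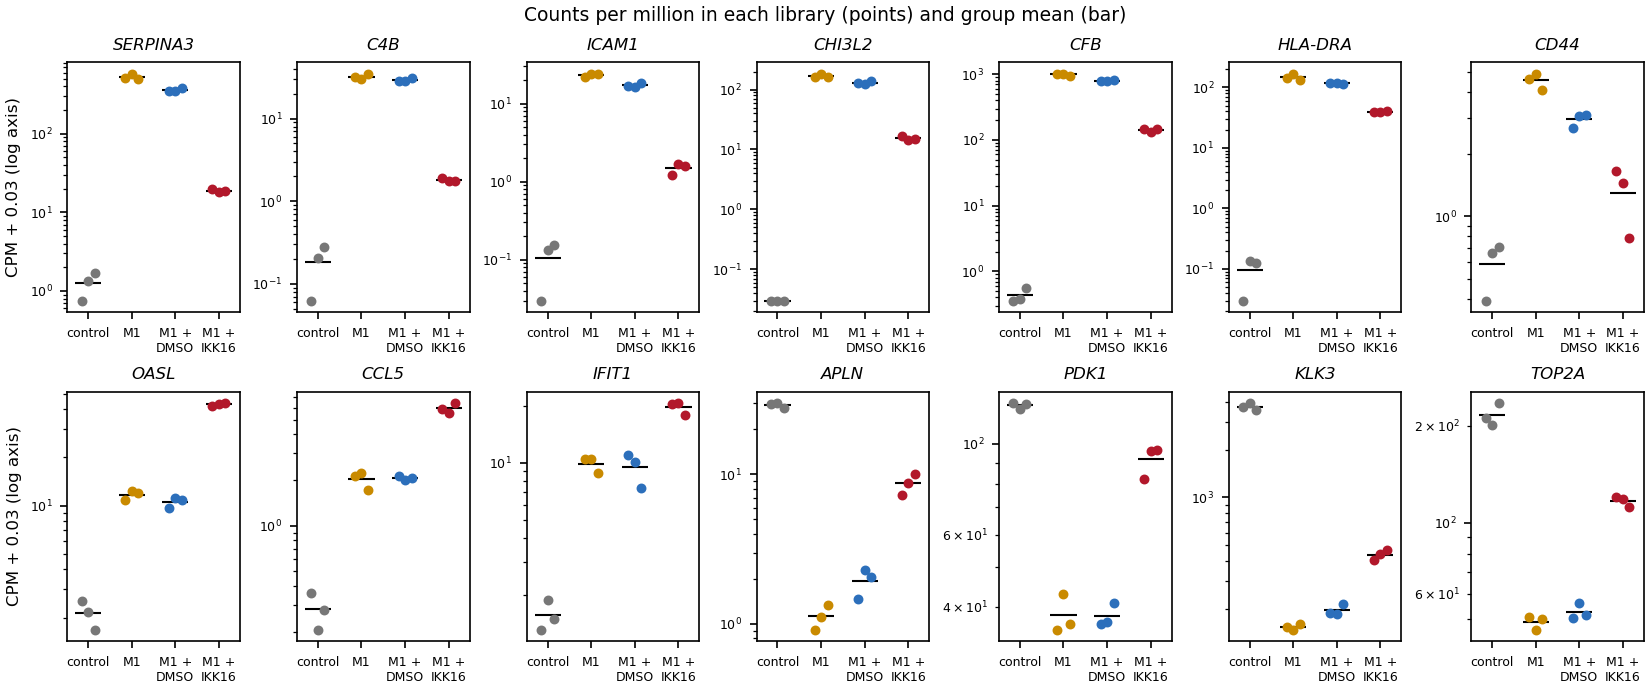
CPM of 14 genes in each library, with 0.03 added on a log axis, for control, M1 medium, M1 medium with DMSO and M1 medium with IKK16; points are libraries and bars are group means of 3. The libraries with IKK16 lie below those with DMSO for SERPINA3, C4B, ICAM1, CHI3L2, CFB, HLA-DRA and CD44 and above them for the other 7 genes.

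The largest rises were mostly in genes that M1 medium had lowered. HTR5A, a serotonin receptor, had the largest fold (log2 3.86 ± 0.49, edgeR adjusted p = 2.16e-06) at a very low level, 0.042, 0.03 and 0.192 CPM with DMSO and 0.792, 1.63 and 1.44 CPM with IKK16. It overlaps HTR5A-AS1, which rose by 3.36. APLN (chrX:129645259-129654956), the secreted peptide apelin, read 1.43, 2.28 and 2.03 CPM with DMSO, 7.25, 8.78 and 10.1 CPM with IKK16 and 29.1 ± 1.34 CPM (SD, n = 3) in control. PEG3, an imprinted zinc-finger gene, rose 4.19-fold, from 9.1, 12.5 and 12.2 to 45.1, 49.5 and 48.3 CPM. ZIM2 shares its first exons and showed nearly the same values, and PEG3-AS1, which overlaps, rose by 2.16, so these 3 are not independent. SLC22A3, an organic cation transporter, rose 3.59-fold, from 9.36, 9.05 and 11.3 to 36.7, 35.0 and 34.5 CPM. AKAP12, a scaffold for protein kinase A, rose by 2.45, STC1, the hormone stanniocalcin, by 2.13, F5, coagulation factor V, by 1.95 and PLOD2, a collagen lysyl hydroxylase, by 1.58.

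Among the most abundant genes, SOD2, the mitochondrial superoxide dismutase, fell from 1720, 1750 and 1840 to 669, 652 and 636 CPM (log2 -1.44 ± 0.04, edgeR adjusted p = 6.45e-17). FN1, fibronectin, read 4130, 4660 and 4990 CPM with DMSO and 1950, 2210 and 2150 CPM with IKK16 (-1.13 ± 0.10, edgeR adjusted p = 1.11e-08). FTH1, the heavy chain of ferritin, fell less, from 4130, 4070 and 4060 to 3190, 3150 and 3260 CPM. In the other direction GDF15, a stress-induced cytokine, rose from 2780, 2610 and 2580 to 3720, 4150 and 4210 CPM (0.60 ± 0.07, edgeR adjusted p = 1.53e-06). GDF15 in M1 medium was also called higher with DMSO than without it (0.28, edgeR adjusted p = 0.0328), but not on leaving out any 1 of the 6 libraries compared other than M1 replicate 3 (edgeR adjusted p = 0.0743 to 0.215).

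The genes of the NF-kB pathway itself moved little. Of 11 subunits and IkB proteins, 7 were lower and 1 higher, with a median log2 fold change of -0.20. With IKK16, 13.2% of all genes tested were lower and 13.9% higher. All 11 had risen with M1 medium (median 2.58), which raised 32.7% of all genes tested. RELB, the subunit of the non-canonical pathway, fell from 63.8, 60.7 and 62.6 to 39.4, 44.5 and 46.9 CPM (-0.52 ± 0.08, edgeR adjusted p = 2.21e-05). BCL3, a nuclear IkB protein, fell by 0.47, NFKB1, which encodes p105 and p50, by 0.46 and RELA by 0.26. NFKBIA, which encodes IkB-alpha, fell by 0.16 and lost its call without DMSO replicate 3 (edgeR adjusted p = 0.0563). NFKB2, which encodes p100 and p52, read 318, 310 and 311 CPM with DMSO and 317, 323 and 336 CPM with IKK16 (0.06, edgeR adjusted p = 0.424). The member called higher was NFKBID, another nuclear IkB protein (0.37). The lower count of this list ranged from 4 to 8 over the alternatives tried: it was 4 without DMSO replicate 3, and the higher count was 0 without DMSO replicate 2 or 3.

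Of 21 IkB kinase and adaptor genes, 7 were lower and 1 higher (median -0.08), against 13.2% and 13.9% of all genes tested. IKBKG fell by 0.39, IKBKE, a kinase related to the IkB kinases, by 0.37 and IKBKB by 0.21, and the last lost its call without IKK16 replicate 2 (edgeR adjusted p = 0.0516). CHUK read 29.2, 30.5 and 30.9 CPM with DMSO and 38.3, 31.5 and 36.6 CPM with IKK16 and did not pass (0.23, edgeR adjusted p = 0.0779), but it passed without IKK16 replicate 2 (adjusted p = 0.031 by edgeR), with only these 2 groups fitted and after removal of the length trend. The member that rose was MAP3K14, the kinase NIK that starts the non-canonical branch, from 44.4, 43.4 and 45.9 to 58.0, 60.1 and 63.7 CPM (0.44 ± 0.06, edgeR adjusted p = 4.17e-06). Its groups did not overlap. The lower count was 4 without IKK16 replicate 1, and the higher count was 2 without IKK16 replicate 2 or DMSO replicate 3 and 3 without IKK16 replicate 3.

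**Figure D2:**
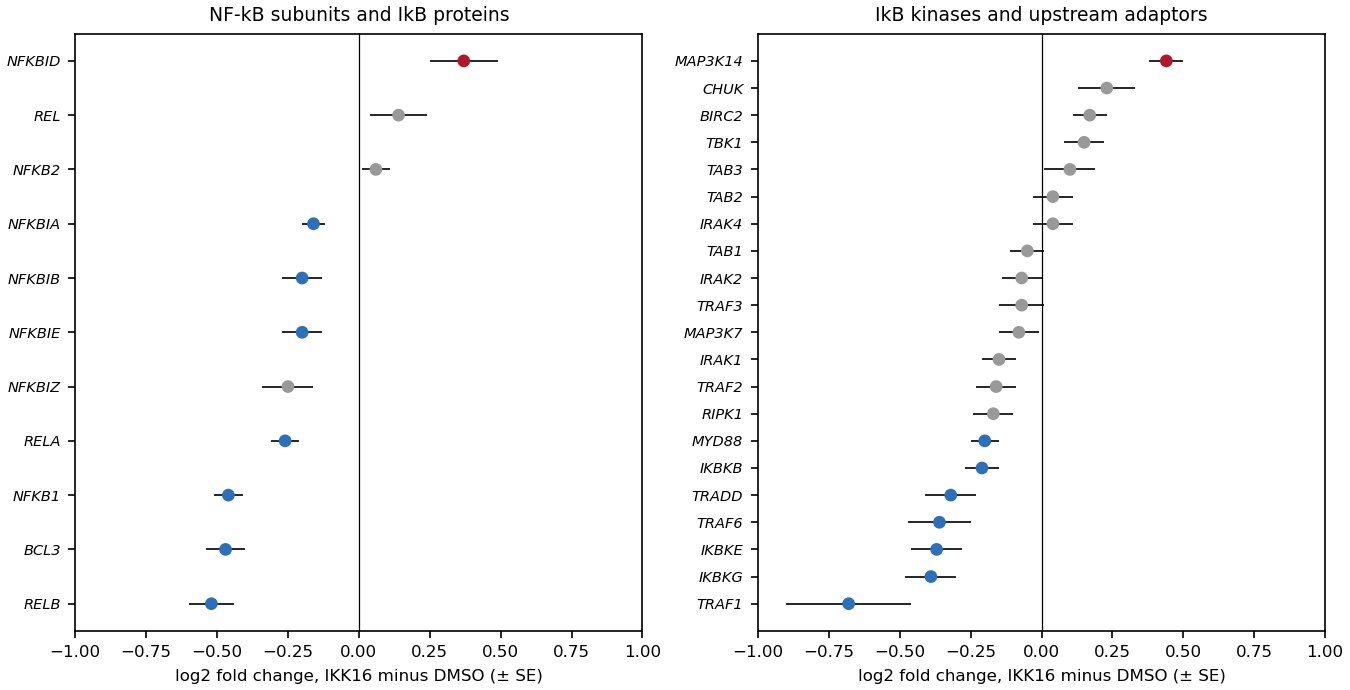
Log2 fold change of IKK16 minus DMSO (x axis, bars are SE) for 11 NF-kB subunits and IkB proteins (left) and 21 IkB kinases and adaptors (right); blue is lower, red is higher and grey did not pass. All members lie between -1 and 1, with RELB at -0.52 and MAP3K14 at 0.44.

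Known target genes of NF-kB fell more often than they rose. Of 28 tested, 13 fell and 4 rose (median -0.23), against 13.2% lower and 13.9% higher among all genes tested. TNFAIP3, the feedback inhibitor A20, fell from 60.7, 57.8 and 63.0 to 32.3, 30.6 and 30.1 CPM (-0.96 ± 0.07, edgeR adjusted p = 7.90e-10). The serum amyloid genes SAA1 and SAA2, which are close copies, fell by 1.59 and 1.95, and ELF3, an epithelial transcription factor, fell by 0.77. LCN2, the iron-siderophore binder lipocalin 2, had risen in M1 medium by 11.6 on the log2 scale but read 419, 418 and 386 CPM with DMSO and 398, 391 and 364 CPM with IKK16 (-0.09 ± 0.06, edgeR adjusted p = 0.284), although it was called lower against M1 medium without DMSO (-0.25, edgeR adjusted p = 0.00185). PIGR, which carries secretory antibodies across epithelia, likewise read 398, 382 and 379 against 375, 367 and 382 CPM. In both genes the 2 groups overlapped. The members that rose were PTGS2, the inducible cyclooxygenase, by 0.54, IER3 by 0.52, the RNase gene ZC3H12A by 0.35 and BIRC3, an inhibitor of apoptosis, by 0.33. BIRC3 (0.07) and IER3 (0.32) did not pass when M1 medium without DMSO was the comparison group (edgeR adjusted p = 0.369 and 0.0626).

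Of 12 chemokines, 4 were called lower and 2 higher (median 0.06), and TNF family genes fell where they changed. Among all genes tested, 13.2% were lower and 13.9% higher. CXCL8, the neutrophil attractant interleukin 8, fell from 9.31, 10.2 and 8.56 to 3.48, 2.68 and 2.32 CPM (-1.73 ± 0.17, edgeR adjusted p = 6.18e-08), CCL8 fell by 2.41, CXCL2 by 2.44 and CCL2 by 0.90, which makes 4 of 12 chemokines lower. CCL20, which attracts CCR6-bearing cells, read 32.3, 28.3 and 28.5 CPM with DMSO and 36.1, 33.3 and 29.1 CPM with IKK16 (0.15, edgeR adjusted p = 0.293). CCL5, a T-cell attractant, went the other way, from 2.1, 1.98 and 2.03 to 5.82, 5.53 and 6.42 CPM (1.54 ± 0.17, edgeR adjusted p = 2.64e-07). CXCL10 was also called higher (0.55) but not by DESeq2 or on leaving out IKK16 replicate 2 or DMSO replicate 1 or 3 (edgeR adjusted p = 0.145, 0.0862 and 0.0999), which leaves 1 chemokine higher. Of 16 TNF family genes 6 fell and 0 rose by edgeR or DESeq2 (1 rose at an unadjusted edgeR p under 0.05). TNFRSF9, the receptor 4-1BB, fell by 1.75, TNFSF10, the death ligand TRAIL, by 1.19 and TNF by 0.88. TNFSF15 and TNFRSF21, which M1 medium had raised by 4.52 and 4.57, stood at 0.04 and 0.05. The cytokine IL32 fell from 558, 565 and 576 to 358, 406 and 414 CPM.

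Complement had the lowest median of the 37 gene lists. Of 10 complement genes, 8 fell and 0 rose by edgeR or DESeq2 (1 rose at an unadjusted edgeR p under 0.05), with a median of -2.40. C3, the central component, read 14.6, 12.2 and 15.3 CPM with DMSO and 2.26, 1.71 and 1.67 CPM with IKK16 (-2.90 ± 0.16, edgeR adjusted p = 1.58e-11). CFB read 776, 774 and 827 against 147, 134 and 147 CPM, the highest level of the group. The membrane regulators CD46 and CD55, which protect cells from complement, did not pass (0.15 and 0.34). Of 25 STAT3 and acute-phase genes, 13 fell and 2 rose. For both lists, the shares among all genes tested were 13.2% lower and 13.9% higher. SOCS3, the feedback inhibitor of cytokine receptors, fell from 1.59, 1.44 and 1.92 to 0.356, 0.203 and 0.608 CPM (-2.05 ± 0.31, edgeR adjusted p = 3.15e-05), whereas IL6ST, the shared receptor of the interleukin 6 family, stood at 0.09.

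Genes of antigen presentation fell. All 11 MHC class II genes tested were lower (median -1.53), and 14 of 17 class I and peptide loading genes were lower with 0 higher by edgeR, DESeq2 or at an unadjusted edgeR p under 0.05 (median -0.57). Among all genes tested, 13.2% were lower and 13.9% higher. HLA-DRA (chr6:32439887-32445046), the class II alpha chain, fell from 117 ± 2.81 to 39.9 ± 0.538 CPM (SD, n = 3; log2 -1.55 ± 0.09, edgeR adjusted p = 6.52e-12) and was still 568-fold above control. CD74, the invariant chain, fell by 1.58. HLA-DOA, at under 1 CPM, had the weakest support, an edgeR adjusted p of 0.0493 that rose to 0.177 without IKK16 replicate 2, and it was not called by DESeq2 (adjusted p = 0.139). HLA-B, a class I heavy chain, fell by 0.94, B2M, the class I light chain, by 0.69, PSMB9, an immunoproteasome subunit, by 0.98 and NLRC5, the class I transactivator, by 0.87. Reads of the close HLA copies may be split between genes.

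Interferon gamma response genes mostly fell, and type I interferon genes moved both ways. Of 22 interferon gamma response genes, 15 fell and 1, CXCL10, rose (median -0.88), the latter with the exceptions given above. GBP2, an interferon-induced GTPase, went from 137, 140 and 156 to 32.8, 28.8 and 27.9 CPM (-2.27 ± 0.09, edgeR adjusted p = 9.12e-15), and GBP5 fell by 2.40. Of 35 type I interferon genes, 9 fell and 11 rose (median 0.09). Among all genes tested, 13.2% fell and 13.9% rose. OASL (chr12:121017761-121039246), an antiviral synthetase-like protein, had the largest rise, from 9.61, 11.1 and 10.8 to 41.9, 43.2 and 43.7 CPM (2.03 ± 0.10, edgeR adjusted p = 2.52e-13). RSAD2, the antiviral enzyme viperin, rose by 1.09, IFIT1, which binds foreign RNA, by 1.05, HERC5, the ISG15 ligase, by 0.95 and IFIT2 by 0.66. TRIM22 fell by 1.51, IFI35 by 0.67 and IFI27 by 0.61. MX2 fell by 1.65, at under 1 CPM. The type I list thus holds members that moved in opposite directions by over 2-fold in the same libraries.

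**Figure D3:**
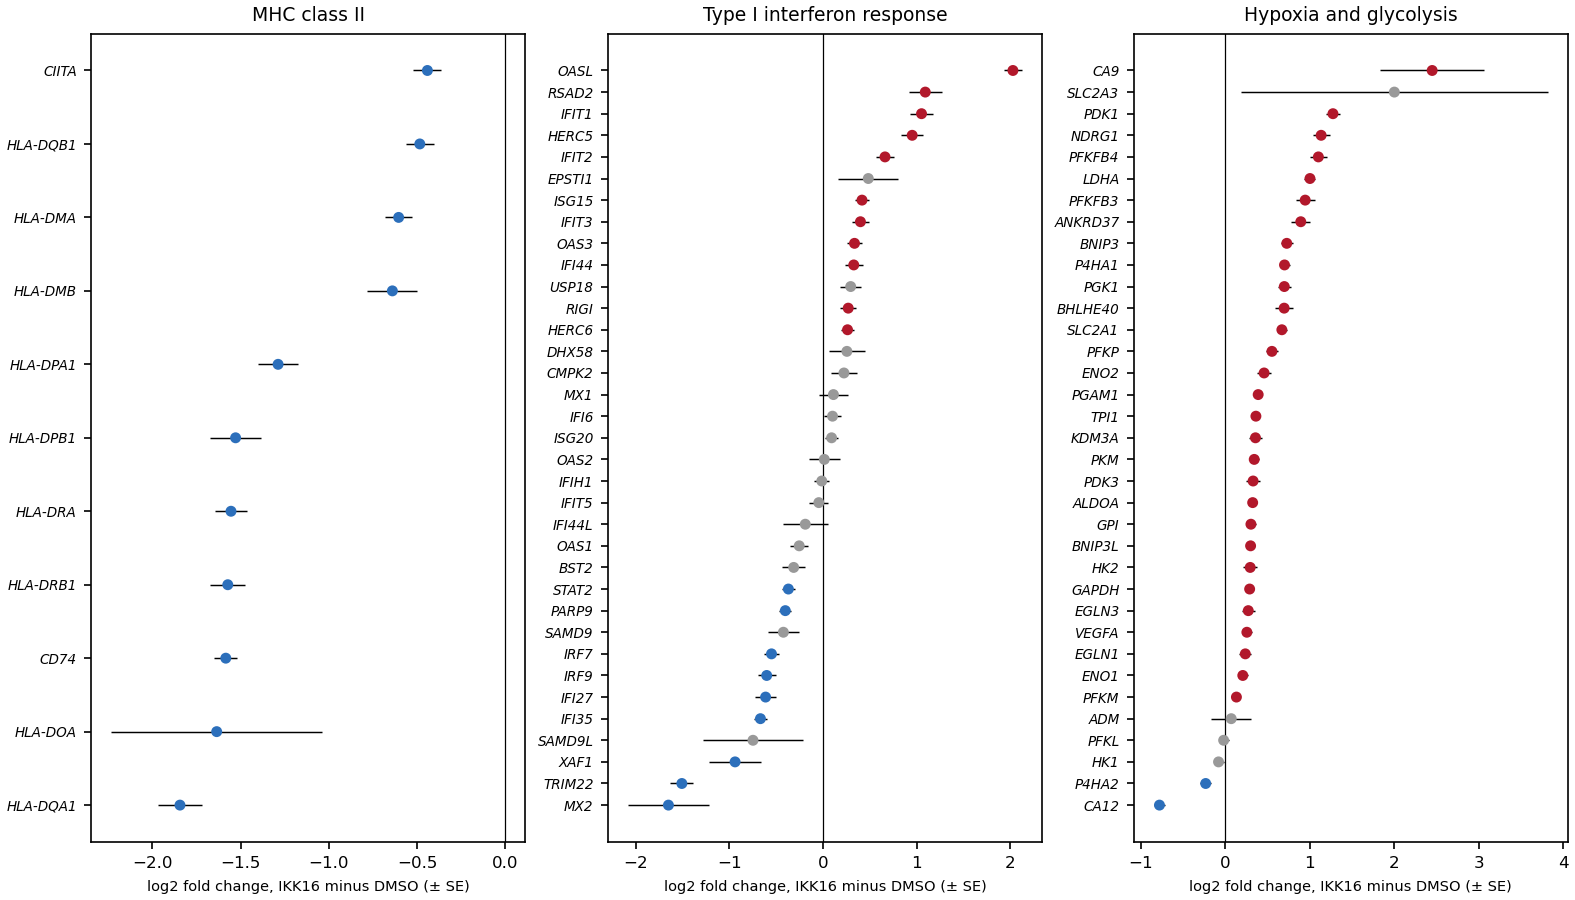
Log2 fold change of IKK16 minus DMSO (x axis, bars are SE) for the tested genes of 3 lists: MHC class II, type I interferon response, and hypoxia and glycolysis; blue is lower, red is higher and grey did not pass. All 11 class II genes lie below 0, the type I list runs from MX2 at -1.65 to OASL at 2.03, and 29 of 35 hypoxia and glycolysis genes are red.

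Cell-cycle genes rose without exception among those tested. All 31 S phase genes were higher, with log2 fold changes from 0.23 to 0.94, and all 30 G2/M genes, from 0.64 to 1.18. M1 medium had lowered 30 of the 31 and all 30, against 32.1% of all genes tested. TOP2A, the topoisomerase that untangles replicated DNA, read 50.4, 56.0 and 51.4 CPM with DMSO and 120, 118 and 112 CPM with IKK16 (1.15 ± 0.06, edgeR adjusted p = 3.65e-12), against 216 CPM in control. HMMR, a spindle protein, rose by 1.18, CCNB2, a mitotic cyclin, by 1.16 and RRM2, a subunit of ribonucleotide reductase, by 0.94. In M1 medium, 12 of the S phase genes and 8 of the G2/M genes were higher with DMSO than without it, against 2.56% of all genes tested. Leaving out 1 library gave 3 to 12 (fewest without M1 replicate 2) and 2 to 5 (2 without M1 replicate 1 or DMSO replicate 1 or 2). Among 15 regulators of the step before S phase, 5 fell and 6 rose (median 0.08), against 13.2% and 13.9% of all genes tested. The CDK inhibitor genes CDKN2B and CDKN2A fell by 1.08 and 0.55. CDKN1A, which encodes p21, fell by 0.30, from 522, 483 and 531 to 398, 414 and 430 CPM. CDKN2C, a related inhibitor, rose by 0.76, CCND1, cyclin D1, by 0.26 and CDK6 fell by 1.09. In bulk RNA a change in the share of cycling cells and a change in RNA per cell cannot be told apart.

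**Figure D4:**
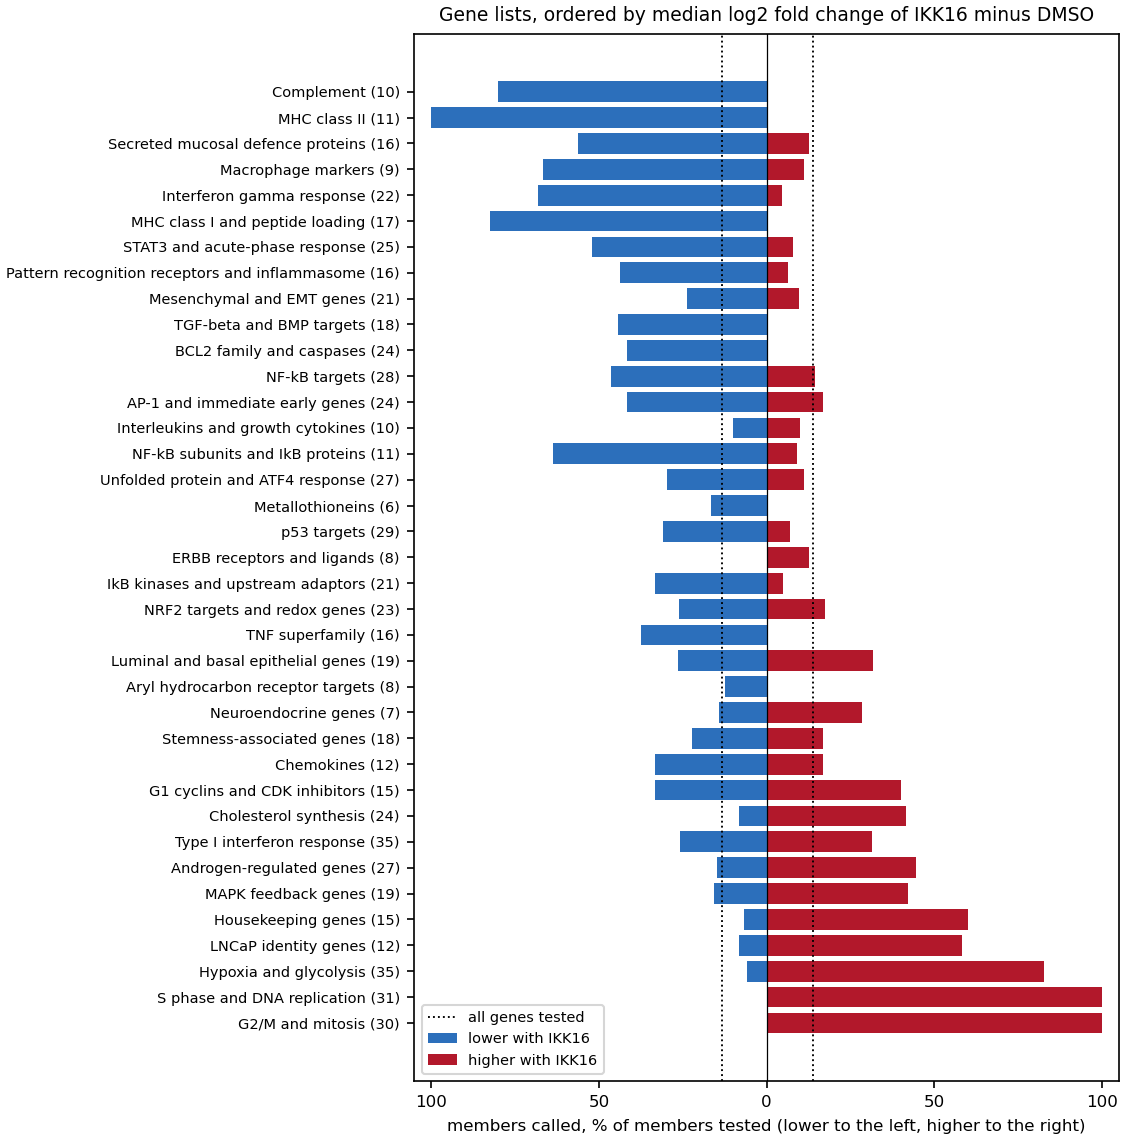
Share of tested members called lower (blue, to the left) and higher (red, to the right) with IKK16, for 37 gene lists with the number tested in brackets, ordered by median log2 fold change; dotted lines are the shares of all genes tested, 13.2% lower and 13.9% higher. Complement and MHC class II stand at the top and the 2 cell-cycle lists, called higher in every member, at the bottom.

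Genes that serve glycolysis and the response to low oxygen rose together: 29 of 35 were higher and 2 lower (median 0.36). LDHA, lactate dehydrogenase, read 318, 336 and 378 CPM with DMSO and 663, 716 and 688 CPM with IKK16 (1.00 ± 0.07, edgeR adjusted p = 4.73e-11), and its mean of 689 CPM equalled the control mean of 689. PDK1, a kinase that inhibits pyruvate dehydrogenase, rose from 36.2, 36.7 and 40.8 to 82.1, 96.3 and 96.5 CPM (1.27 ± 0.08, edgeR adjusted p = 7.23e-11). PFKFB4, a regulator of glycolysis, rose by 1.10, PGK1 by 0.70 and ALDOA by 0.32, the last beside an overlapping gene model with nearly the same counts. CA9, a carbonic anhydrase and hypoxia marker, rose by 2.45 at about 1 CPM or less. Its relative CA12 fell by 0.78 and P4HA2, a prolyl hydroxylase, by 0.23, and the latter lost its call without IKK16 replicate 2 (edgeR adjusted p = 0.0539), which leaves 1 lower. Beside this group, 9 of 15 housekeeping genes were higher and 1, B2M, lower (median 0.18), against 13.9% and 13.2% of all genes tested. GAPDH, also a glycolytic enzyme, rose by 0.29, HPRT1 by 0.54 and RPLP0 by 0.36, whereas ACTB stood at -0.04.

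Androgen-regulated genes were more often higher than lower. Of 27 tested, 12 rose and 4 fell (median 0.14), against 13.9% and 13.2% of all genes tested. M1 medium had lowered 23 of the 27, against 32.1% of all genes tested. KLK3 (chr19:50854915-50860764), which encodes prostate-specific antigen, rose from 187, 185 and 214 to 404, 438 and 468 CPM (1.16 ± 0.06, edgeR adjusted p = 3.66e-12), against 3710 CPM in control. KLK2, its neighbour and relative, rose by 0.91, TMPRSS2, a membrane protease, by 0.58 and SLC45A3 by 0.38. NDRG1, which also stands in the hypoxia list, rose by 1.13. KLK3 in M1 medium was also higher with DMSO than without it (0.34 ± 0.06, edgeR adjusted p = 0.00553), a call lost without M1 replicate 2 (0.31, edgeR adjusted p = 0.0626). Of 24 cholesterol synthesis genes 10 rose, STARD4, a sterol carrier, most (0.70).

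CD44, SOX2 and NANOG, stem-cell-associated genes named in the title of the series, were low. CD44, the hyaluronan receptor, had 63, 101 and 80 counts with DMSO and 41, 35 and 20 with IKK16 (log2 -1.21 ± 0.23, edgeR adjusted p = 0.000413), so the groups did not overlap. SOX2 had 4, 1 and 1 counts with DMSO and 0 in each library with IKK16, too few to be tested, and NANOG had 0 in all 6. Other genes of this kind moved both ways. SOX9, a progenitor transcription factor, fell from 67.4, 66.3 and 70.7 to 27.4, 27.7 and 27.4 CPM (-1.31 ± 0.08, edgeR adjusted p = 1.26e-11), and CD24, a surface glycoprotein, fell by 1.08. EZH2, the Polycomb methyltransferase, rose by 0.34 and ALDH1A3 by 0.26. In all, 4 of 18 stemness-associated genes fell and 3 rose (median 0.03), against 13.2% and 13.9% of all genes tested. KLF4 read 72.8, 71.1 and 69.6 against 72.0, 72.7 and 71.9 CPM.

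The ID genes, inhibitors of differentiation that BMP signalling induces, were lower. ID1 read 68.2, 64.2 and 76.9 CPM with DMSO and 30.9, 29.3 and 41.9 CPM with IKK16 (-1.03 ± 0.11, edgeR adjusted p = 2.45e-07), ID2 fell by 1.03 and ID3 by 1.49. Of 18 TGF-beta and BMP targets 8 fell (5 without IKK16 replicate 1) and 0 rose by edgeR, DESeq2 or at an unadjusted edgeR p under 0.05. Among all genes tested, 13.2% fell and 13.9% rose. Among matrix and adhesion genes, LAMB3, a chain of laminin 332, fell from 120, 119 and 129 to 48.6, 46.8 and 47.3 CPM (-1.37 ± 0.07, edgeR adjusted p = 1.13e-12), TNC, tenascin C, fell by 1.01 and COL1A1 by 0.66. MMP7, the matrilysin protease, rose by 0.38 but not by DESeq2 (adjusted p = 0.058).

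Immediate early and MAP kinase feedback genes gave a mixed picture. JUN, the AP-1 subunit, fell from 189, 183 and 193 to 83.2, 89.7 and 93.0 CPM (-1.09 ± 0.06, edgeR adjusted p = 1.46e-12), while FOS, its partner, rose from 14.8, 13.8 and 15.6 to 25.2, 26.5 and 26 CPM (0.82 ± 0.12, edgeR adjusted p = 1.58e-05). The immediate early list held 10 lower and 4 higher of 24, with 2 higher without IKK16 replicate 3 or DMSO replicate 3. Among all genes tested, 13.2% were lower and 13.9% higher. Of 19 MAP kinase feedback genes 8 rose and 3 fell: the ETS factors ETV5, ETV4 and ETV1 rose by 1.02, 0.90 and 0.89 and the phosphatase DUSP4 by 0.77, and DUSP10 fell by 0.62. M1 medium had raised ETV4 and ETV5 by 4.01 and 3.23 and lowered ETV1 and DUSP4.

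Genes of cell death were lower where they changed. Of 24 BCL2 family and caspase genes 10 fell and 0 rose by edgeR, DESeq2 or at an unadjusted edgeR p under 0.05 (median -0.24). BMF, a BH3-only protein that promotes death, fell from 44.3, 45 and 51.9 to 19.5, 20.5 and 21.6 CPM (-1.19 ± 0.07, edgeR adjusted p = 2.51e-11). CASP10, an initiator caspase, fell by 0.82 and BBC3, the p53 target PUMA, by 0.77, but so did the protective BCL2L1, by 0.36. Of 29 p53 targets 9 fell and 2 rose. The lower count of the p53 list was 6 without DMSO replicate 1 and 12 with only these 2 groups fitted. Among all genes tested, 13.2% fell and 13.9% rose. Among redox genes, the aldo-keto reductases AKR1C1, AKR1C2 and AKR1C3, which are close copies, fell by 1.09, 0.99 and 0.87, whereas NQO1, a standard NRF2 target, read 337, 323 and 323 against 335, 325 and 321 CPM.

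Set against the response to M1 medium, which was measured in other libraries (M1 medium against control), the changes with IKK16 mostly ran the opposite way. M1 medium raised 1748 genes at least 2-fold (10.2% of those tested) and lowered 1357 (7.95%). Of the raised genes 751 (43.0%) were lower with IKK16, 92 (5.3%) higher and 905 (51.8%) not called. Among all genes tested these shares were 13.2%, 13.9% and 72.9%. Of the lowered genes 589 (43.4%) were higher, 15 (1.1%) lower and 753 (55.5%) not called. From the other side, 244 of the 283 genes that IKK16 lowered at least 2-fold (86.2%) and 100 of the 142 that it raised at least 2-fold (70.4%) had moved at least 2-fold the other way with M1 medium. The share lowered by IKK16 was 37.7% among genes that M1 medium raised 2- to 4-fold and 58.3% among the 132 genes that it raised at least 64-fold, with median log2 fold changes of -0.28 and -1.10. Across the 3105 genes that M1 medium changed at least 2-fold, the log2 fold changes of the 2 comparisons had a Spearman correlation of -0.65 (-0.48 over all 17070 genes and -0.32 within the 1748 that M1 medium raised), a description across genes that share these libraries and are not independent.

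Some genes that M1 medium raised rose further with IKK16. Beside OASL and CCL5, AGR2, a protein disulfide isomerase of secretory cells, rose from 46.6, 46.8 and 40.9 to 115, 109 and 98.1 CPM (1.26 ± 0.08, edgeR adjusted p = 7.48e-11), against 16.9 CPM in control. CYSLTR1, a leukotriene receptor, rose by 1.49, NTS, the peptide neurotensin, by 1.62 and TFF1, a trefoil peptide, by 1.10. A smaller set of 15 genes fell with both M1 medium and IKK16, led by GRIN3A, an NMDA receptor subunit, from 8.94, 9.32 and 10.1 to 4.95, 4.8 and 4.63 CPM (-0.98 ± 0.14, edgeR adjusted p = 7.63e-06). ELOVL5, a fatty acid elongase, fell by 0.20 in that set.

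Gene counts per library ran from 24201864 to 33813552.5. DMSO itself differed from M1 medium alone in 437 genes higher (2.56%) and 336 lower (1.97%). Leaving out any 1 of these 6 libraries gave 29 to 810 higher and 47 to 678 lower, the fewest without M1 replicate 2 and the most without M1 replicate 3. SERPINA3, ICAM1, CHI3L2, UBD and CFB had already been lower with DMSO than without it in M1 medium, by 0.57, 0.44, 0.39, 0.68 and 0.32. The call for ICAM1 was lost without DMSO replicate 1 or 2 or M1 replicate 1 or 2 (edgeR adjusted p = 0.0642 to 0.145), and that for CHI3L2 without M1 replicate 2 (edgeR adjusted p = 0.0626). Summed macrophage markers (22 genes) read 257 to 274 CPM with DMSO, 260 to 278 with IKK16 and 229 to 232 in control. Most of each sum was CSF1R, at 185 to 202 CPM with DMSO, 220 to 234 with IKK16 and 223 to 225 in control. The sums therefore hide the other markers. CD68 read 31.0, 30.6 and 30.4 CPM with DMSO, 24.9, 26.6 and 23.7 with IKK16 and 4.61, 5.2 and 5.0 in control. M1 medium raised 7 of the 9 markers with enough counts and lowered 2, against 32.7% and 32.1% of all genes tested. In each of the DMSO and IKK16 groups, 6 of the 22 had no counts. TYROBP, CYBB, C1QA and C1QB had none, and PTPRC and CD14 stayed near 0. Of the 9 markers with enough counts 6 were lower with IKK16 and 1 higher, against 13.2% and 13.9% of all genes tested. S100A9 (-1.83) and ITGAM (-0.91) were among the lower ones, with reads in M1 medium and hardly any in control. Which cells held these reads, and their part in the results, was not tested. Summed LNCaP identity genes (12) rose from 3780 to 3830 CPM with DMSO to 4410 to 4460 CPM with IKK16, against 9800 to 9970 CPM in control.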

How the data were processed

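Polyadenylated RNA was sequenced by a commercial service, per the labels' protocols. The submitters' processing notes name hg38, Trimmomatic, BWA 0.7.17 and HOMER 4.10; the sources used here do not give their roles, the annotation or any strand setting. The deposited table holds estimated counts (expected counts, in multiples of 0.5) for 70507 RefSeq transcripts in 18 libraries; they were rounded to whole numbers. Transcripts were named with RefSeq (GRCh38.p14) or GENCODE tables, 350 had no name (0.092 to 0.112% of counts), and each gene kept its transcript with the highest total.

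All 18 libraries were fitted with edgeR 4.0.16 (R 4.3.3; quasi-likelihood test, TMM scaling, filterByExpr, which removed 11017 genes), with Benjamini-Hochberg adjustment over 17070 genes at 0.05; the common biological coefficient of variation was 0.0626. CPM are TMM-scaled. SE was taken as log2 fold change over root F. The depth of 24201864 to 33813552.5 gene counts per library limits calls below about 1 CPM. Members and lists were chosen with earlier results of these data known. Named genes are the 20 largest falls and rises (coding, 1 CPM, no overlap), 3 noncoding per direction, up to 5 called members per direction and 3 abundant uncalled members of each list, the title genes, the most abundant called genes, the 10 largest changes within M1-raised and M1-lowered genes, and promoters matching a kB motif. Alternatives were DESeq2 1.42.0, RLE scaling, 2 filters, a replicate block, the longest transcript, a length trend, the 2 groups alone, M1 medium without DMSO as comparison group and each library left out. Code was tested on simulated data. Some genes are not reported here.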

Additional observations from a re-analysis of the deposited data

How the results depend on the processing

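The counts of genes lower and higher with IKK16 stayed within 1.5 times of 2256 and 2378 under the alternatives run. Leaving out 1 library gave 1670 to 1986 lower and 1853 to 2248 higher, and 247 to 269 and 128 to 151 at 2-fold or more. With M1 medium without DMSO as the comparison group, 437 genes were lower and 292 higher at 2-fold or more, against 283 and 142; the cause was not tested. Of the genes that M1 medium raised, 649 to 778 were lower and 73 to 98 higher without 1 library, and of those it lowered, 10 to 20 were lower and 527 to 592 higher. DMSO against M1 medium was the least stable comparison run: 693 genes were lower in a fit of the 2 groups alone, and 723, 873 and 775 were higher with the length trend removed, in the 2 groups alone and with DESeq2, while leaving out 1 library gave 47 to 678 lower and 29 to 810 higher. The looser kB consensus was found before 21.9% of the strongly lowered genes, against 1.56% for the strict decamers.

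Same-numbered IKK16 and DMSO libraries deviated from their group means with correlations of -0.076, 0.094 and -0.037, so the numbers were not taken as pairs. With the replicate block, 2226 genes were lower and 2322 higher, 276 and 146 of them at least 2-fold, and HLA-DOA was no longer called (edgeR adjusted p = 0.0643). Of 157 genes named, 15 changed their call for IKK16 against DMSO under some alternative. Against M1 medium without DMSO, NFKB2 (0.19, edgeR adjusted p = 0.00439) and CCL20 (0.29, edgeR adjusted p = 0.0321) were called higher, and ELMO1, CXCL10 and MMP7 were not called (edgeR adjusted p = 0.291, 0.496 and 0.109). With a filter of 1 CPM in 3 libraries, 213 genes were lower and 107 higher at 2-fold or more, against 283 and 142. With 3 libraries a group, changes in genes under about 1 CPM can be missed, and how often was not measured. Only 1 dose and time of IKK16 was used, and effects of the compound on other kinases were not tested.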
